A study of Mus musculus with 194 samples.

Results

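The genes described are 5 microglia genes (Csf1r, Cx3cr1, P2ry12, Trem2 and Aif1) and 5 endothelial genes (Cldn5, Flt1, Pecam1, Thbd and Cd93). They were taken by name as markers of cell types that the virus was not expected to record, and all 10 were found among the 21631 protein-coding loci on chromosomes 1 to 19 and X. A locus is the gene body in GRCm38 with 10 kb on each side, and a level is the number of transposon insertions in it per 1000000 insertions of an animal's table (IPM). A level per kb is that value divided by the locus length.

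In the study, mouse brain cells carried calling cards: a transposase inserts a transposon at TTAA close to the site where it is bound, which leaves a mark in the DNA. All mice received adeno-associated virus (AAV) on postnatal day 0 to 1. The 194 samples of the labels were combined by the authors into 47 tables, for 46 animals in 11 groups and the mouse neuroblastoma line N2a. In the self-reporting transposon (SRT) groups the insertions were read from RNA of cortex divided into 10 parts.

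The 2 C57bl6J mice received viruses that do not need Cre. Syn1Cre (n = 6) and GFAPCre (n = 6) are named by Cre lines whose promoters are used to drive Cre in neurons and in astrocytes, and Syn1CreNeg (n = 6) and GFAPCreNeg (n = 6) are the Cre-negative groups. Syn1Cre_SP1_P28 (n = 4) and Syn1Cre_SP1_P10 (n = 3), called SP1 P28 and SP1 P10 below, are Syn1Cre mice labelled with the transcription factor SP1 at postnatal day 28 or 10. The labels do not say in what form SP1 was given, and the age of the other groups is not given in the sources used here. BrokenHeart (n = 3) was read from cortical DNA by inverse PCR of barcoded transposons. Rbp4Cre_TRAP (n = 4) came from whole forebrain by TRAP, which purifies RNA bound to tagged ribosomes, and Frontflip_GFAPCre (n = 3) and Frontflip_GFAPCreNeg (n = 3) carried a construct labelled Frontflip. The replicates of the labels were read as animals, and the p-values measure the spread between them.

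Microglia are the resident macrophages of the brain and enter it from the yolk sac, apart from the neural lineage. Endothelial cells line the vessels and form the blood-brain barrier, with mural cells on their outer face. An unfused piggyBac transposase, the enzyme generally used for calling cards, favours open chromatin and enhancers, so that insertions near a gene need not come from cells that express it. Insertions were read from dissected tissue, so the cell that held one is not known, and fewer recorded cells of a type and fewer insertions per cell cannot be told apart.

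The tables of the 46 animals held between 2341 and 2186743 insertions, with the lowest totals in Frontflip_GFAPCreNeg (2341 to 9601) and the highest in C57bl6J. In the 5 deepest mouse groups (C57bl6J, Syn1Cre, GFAPCre and both Cre-negative groups) the median protein-coding locus had a level between 0.265 and 0.316 IPM per kb. The median of 20 neuron loci lay between 1.05 and 1.96 and that of 20 astrocyte loci between 0.648 and 2.38. The 5 microglia genes had a median between 0.305 and 0.364, with 3 of 5 above the median locus in each of these groups. The 5 endothelial genes had a median between 0.146 and 0.337, with 2 or 3 of 5 above it. Among other markers chosen for the same cells, the median of 20 further microglia loci lay between 0.13 and 0.308, that of 20 further endothelial loci between 0.129 and 0.181 and that of 8 mural loci between 0.181 and 0.296. The median of the microglia members thus lay above the median locus in each of these groups, with the highest at 0.364 against 0.272 in Syn1CreNeg. That of the endothelial members lay above it in C57bl6J and Syn1Cre and below it in the others. Both lay under the neuron and astrocyte medians. By the gene body alone, without the flanks, the microglia members had a median between 0.0295 and 0.133, with 1 or 2 of 5 above the median body. In each of these groups that was below the median body of all loci (0.162 to 0.198). The endothelial members had a median between 0.0568 and 0.391 by gene body, with 2 to 4 of 5 above the median body.

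**Figure D1:**
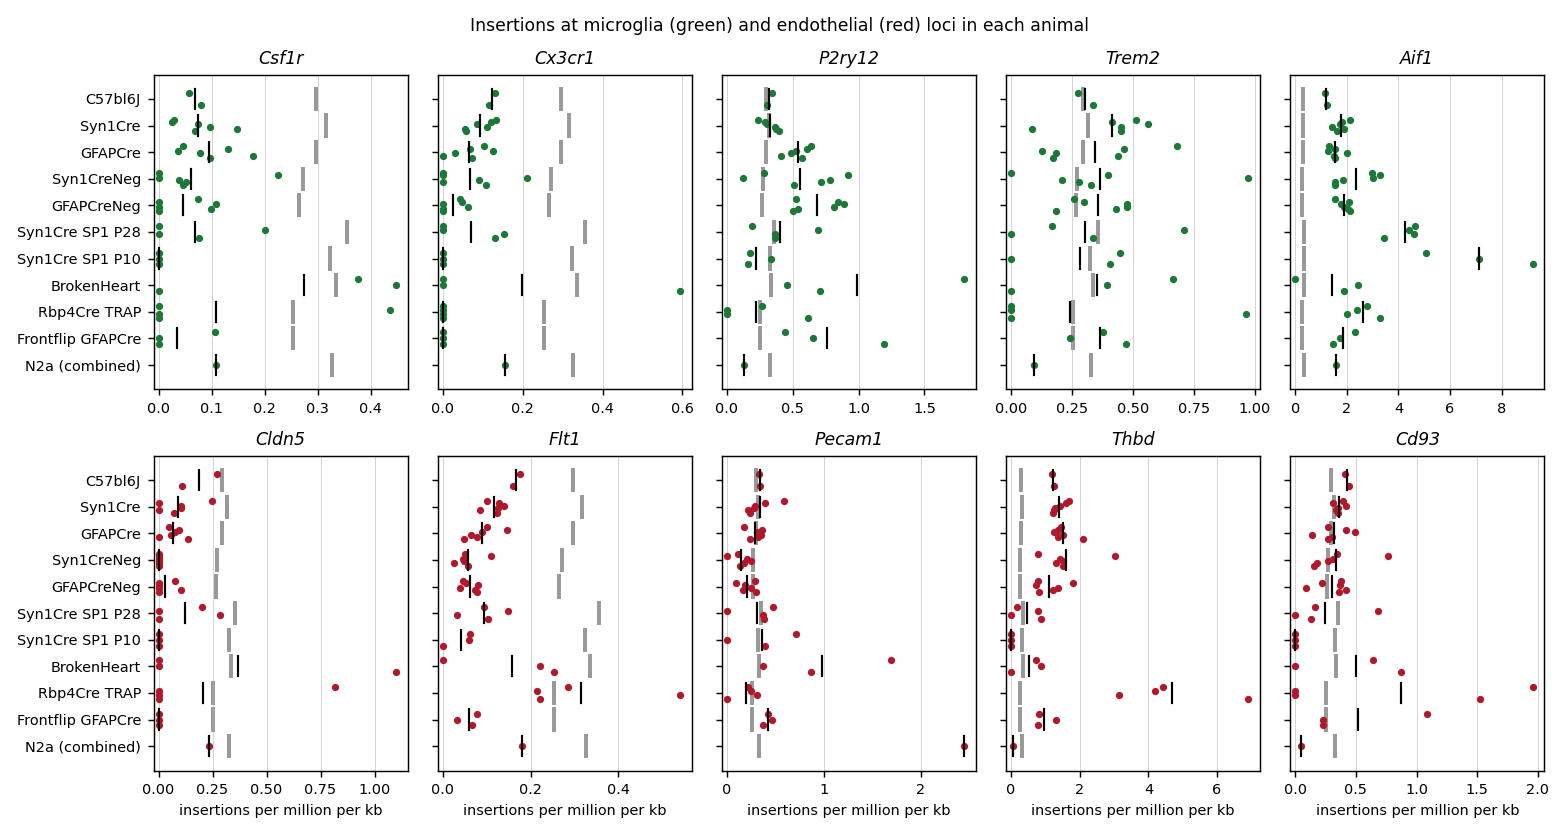
IPM per kb (x axis, its scale differs between panels) at each of the 10 loci, by group; each point is an animal (N2a is 1 combined table), the black line is the group mean and the grey line the median protein-coding locus. Aif1 and Thbd lie to the right of the grey line in the 5 deep cortex groups, while Csf1r, Cx3cr1 and Flt1 lie to its left; Frontflip_GFAPCreNeg, with at most 9601 insertions an animal, is not drawn.

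Among the microglia genes, the receptors Csf1r and Cx3cr1 were the least recorded. Csf1r, the receptor for colony-stimulating factor 1 that microglia need to survive (chromosome 18: 61105572-61131139), had 75 insertions in all 47 tables and a group mean of 0.0467 to 0.0945 IPM per kb over the 5 deep cortex groups. In Syn1Cre its level ran from 1.19 through a median of 3.24 to 6.77 IPM. Cx3cr1, the receptor for the neuronal chemokine fractalkine (chromosome 9: 120048683-120068296), had 71 insertions in all and 0.0256 to 0.123 IPM per kb. Csf1r stood between percentiles 17.7 and 25.1 of all loci by level per kb and Cx3cr1 between 16.3 and 26.2. At 0 insertions in 271946, the level of either gene in Syn1Cre_SP1_P10 could still be up to 11 IPM (3 counts over the group), above the Syn1Cre means of 3.36 and 3.74, so no difference was detectable at this depth.

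Trem2, a lipid-sensing receptor that acts in phagocytosis (chromosome 17: 48346401-48352276), lay just above the median locus. Its group means ran from 0.305 to 0.414 IPM per kb, at percentiles 51.1 to 59.7. Only 7 of its 203 insertions lay within the gene, which makes up 22.7% of the locus, and Treml1 shares the locus. P2ry12, the ADP receptor that steers microglial processes (chromosome 3: 59216271-59262985), had 0.32 to 0.686 IPM per kb, at percentiles 51.2 to 79.8. Of its 667 insertions 531 lay within the gene, but the gene itself lies within Med12l, which encodes a Mediator subunit and is not a microglia marker.

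Aif1, which encodes the actin-binding protein Iba1 used to stain microglia (chromosome 17: 35170986-35176083), had the most insertions of any member. Its group means ran from 1.19 to 2.36 IPM per kb, 4.02 to 8.67 times the median locus and at percentiles 94.2 to 97.8. Of its 991 insertions only 60 (6.05%) lay within the gene, which makes up 20.3% of the locus. The remainder lay in the flanks, which Prrc2a and Lst1 share. By the gene body alone, Aif1 stood between percentiles 35.1 and 86.7 in these groups.

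Among the endothelial genes, Cldn5, a tight junction protein of the blood-brain barrier (chromosome 16: 18776847-18778262), had 43 insertions in all and 0 to 0.189 IPM per kb. In Syn1CreNeg it had 0 insertions in 1768674, which allows up to 1.70 IPM. Flt1, a receptor for vascular endothelial growth factor (chromosome 5: 147561604-147726438), had 0.0565 to 0.168 IPM per kb, at percentiles 22.4 to 32.7. Pecam1, an adhesion molecule of endothelial junctions (chromosome 11: 106654213-106715281), had 0.146 to 0.337. Most insertions of Flt1 (382 of 448) and Pecam1 (536 of 679) lay within the gene, close to the share of the locus that the gene takes up (89.2% and 75.3%).

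Thbd, which encodes thrombomodulin, a cofactor that turns thrombin to an anticoagulant role (chromosome 2: 148404471-148408188), was the endothelial counterpart of Aif1 in level. Its group means ran from 1.12 to 1.60 IPM per kb, at percentiles 91.0 to 95.6. Only 52 of its 658 insertions (7.9%) lay within the gene. Between 85.7% and 95.1% of the insertions in the 5 deep cortex groups lay between Sstr4, a somatostatin receptor gene, and Thbd, and 88.6% of all were on the plus strand. Cd93, a receptor of endothelial adhesion that lies on the same chromosome (148436651-148443535), had 0.304 to 0.426 IPM per kb. Most insertions of Aif1 and Thbd thus lay outside the gene, although by gene body alone Thbd still stood between percentiles 64.0 and 94.6.

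**Figure D2:**
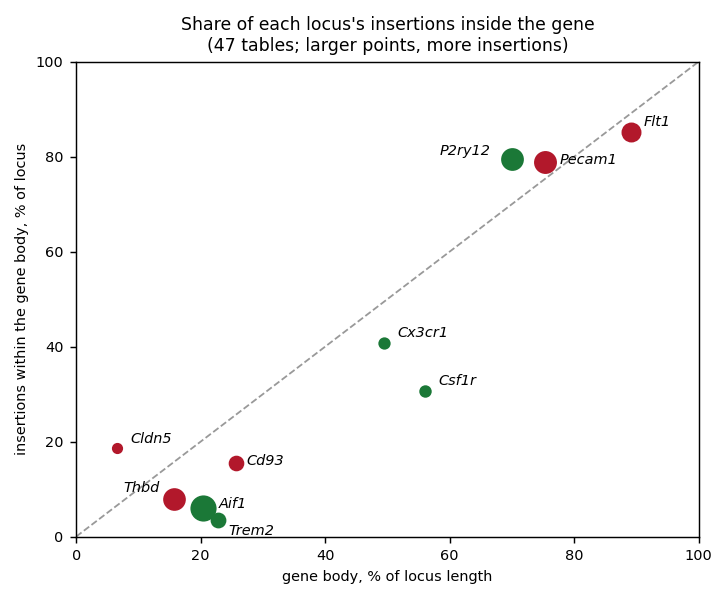
Share of each locus's insertions that lay inside the gene body (y axis, %) against the share of the locus length that the body takes up (x axis, %), over all 47 tables; green points are microglia genes, red points endothelial genes, and the dashed line marks equal shares. Csf1r (30.7%), Cx3cr1 (40.8%), Cd93 (15.4%), Aif1 (6.05%), Thbd (7.9%) and Trem2 (3.45%) lie below the line. P2ry12 (79.6%) and Cldn5 (18.6%) lie above it, and Flt1 and Pecam1 lie near it.

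The promoters that bear on these loci are shown because insertions need TTAA and because SP1 binds GC boxes. The 250 bases before the start come from RefSeq (GRCm38.p6), which gave an entry for 6 of the 10 members. They are given 5′ to 3′ along the gene's strand, with TTAA and the GC box (GGGCGG, or CCGCCC on the other strand) in capitals:
Prrc2a: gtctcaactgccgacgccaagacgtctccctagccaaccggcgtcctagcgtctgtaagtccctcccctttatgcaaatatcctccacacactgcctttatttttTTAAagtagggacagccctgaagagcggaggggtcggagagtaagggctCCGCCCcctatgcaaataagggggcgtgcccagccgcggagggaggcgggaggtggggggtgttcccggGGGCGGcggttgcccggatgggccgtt
Aif1: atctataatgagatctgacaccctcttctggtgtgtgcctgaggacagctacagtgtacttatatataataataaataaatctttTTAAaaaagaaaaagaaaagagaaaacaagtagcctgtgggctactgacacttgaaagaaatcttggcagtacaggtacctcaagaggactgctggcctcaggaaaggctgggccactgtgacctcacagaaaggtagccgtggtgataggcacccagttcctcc
Flt1: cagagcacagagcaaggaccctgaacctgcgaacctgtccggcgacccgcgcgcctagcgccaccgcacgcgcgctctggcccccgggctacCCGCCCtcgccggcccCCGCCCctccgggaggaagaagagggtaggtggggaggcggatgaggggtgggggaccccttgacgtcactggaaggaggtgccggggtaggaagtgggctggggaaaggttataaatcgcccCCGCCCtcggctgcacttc
Cldn5: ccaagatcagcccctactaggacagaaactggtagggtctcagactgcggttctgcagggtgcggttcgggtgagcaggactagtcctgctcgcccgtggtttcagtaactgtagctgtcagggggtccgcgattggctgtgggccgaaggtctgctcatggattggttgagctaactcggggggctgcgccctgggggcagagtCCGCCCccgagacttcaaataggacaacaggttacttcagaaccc

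The Prrc2a promoter (chr17:35164878-35165127, minus strand) lies inside the Aif1 locus and holds 1 TTAA, 145 bases before the start, and 2 GC boxes, 96 and 27 bases before it. It took 79 insertions, 57 of them in the SP1 groups. The Aif1 promoter (chr17:35176053-35176302, minus strand) holds 1 TTAA and no GC box and took 2 insertions, none in the SP1 groups. The Flt1 promoter (chr5:147726012-147726261, minus strand) has 3 GC boxes and the Cldn5 promoter (chr16:18776597-18776846, plus strand) has 1, both without a TTAA and both with 0 insertions. The promoters of Cx3cr1, P2ry12 and Trem2 hold neither motif and had 0 insertions. Among 32851 RefSeq promoters of the same length, 32.7% hold a GC box, 49.0% a TTAA and 10.2% both.

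The first comparison asks whether these loci differ between the neuronal and the astrocytic Cre line. P2ry12 was lower in Syn1Cre than in GFAPCre, and it was the only one of the 5 members tested (P2ry12, Aif1, Flt1, Pecam1 and Thbd) that passed the test; 2.15% of the 11553 loci tested did. In Syn1Cre its level ran from 15.9 through a median of 22.2 to 26.5 IPM. In GFAPCre it ran from 27.6 through 36.6 to 42.4. The groups did not overlap, with every GFAPCre animal above every Syn1Cre animal. The fitted log2 fold change (Syn1Cre over GFAPCre) came to -0.78 ± 0.17 (SE, adjusted p = 0.01055 in edgeR's quasi-likelihood test).

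The P2ry12 call held in each of the 12 fits that left out an animal and in the other alternatives, with an adjusted p of up to 0.04898 when distinct positions were counted. The locus of Med12l, in which P2ry12 lies and which counts its insertions too, was also lower (-0.49, adjusted p = 0.03609 in edgeR). Syn1Cre and GFAPCre animals were sequenced in separate pools, and the effect of pool cannot be told apart from that of Cre line. The 4 other members tested had log2 fold changes between -0.16 (Thbd) and 0.28 (Flt1), with adjusted p from 0.5452 to 0.8575. Of the other marker loci, 6 of 20 microglia, 9 of 20 endothelial and 3 of 8 mural loci were tested and none passed. Loci of the astrocyte list also lay lower in Syn1Cre, with 18 of 19 tested below 0, a median of -0.31 and none past the threshold, against a median close to 0 for all loci. The list summed to between 1193 and 3550 IPM in Syn1Cre animals and to between 1451 and 2860 in GFAPCre animals, and its part in the P2ry12 difference was not tested.

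**Figure D3:**
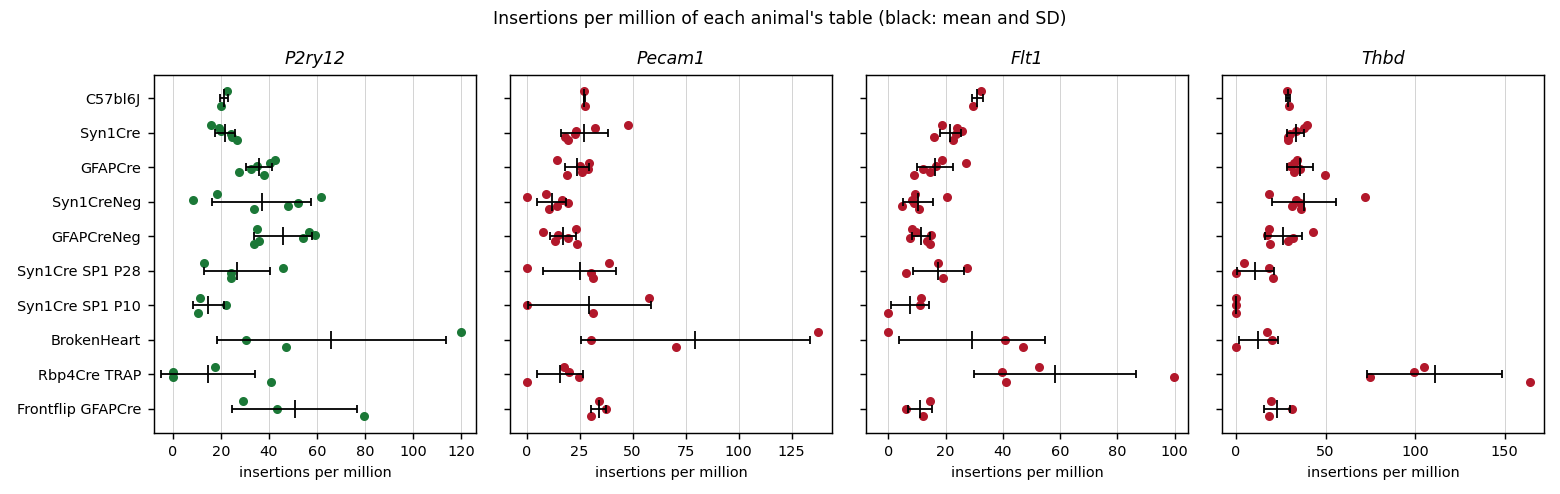
IPM (x axis) at P2ry12, Pecam1, Flt1 and Thbd, by group; each point is an animal, and the black mark and bar are the group mean and SD. P2ry12 in the 6 Syn1Cre animals (15.9 to 26.5) lies below the 6 GFAPCre animals (27.6 to 42.4), Thbd is highest in Rbp4Cre_TRAP, and its 3 Syn1Cre_SP1_P10 animals are at 0.

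Against their Cre-negative group, Syn1Cre animals had fewer insertions at P2ry12 and more at Pecam1, 2 of the 4 members tested, where 31.1% of 8613 loci passed. P2ry12 in Syn1CreNeg ran from 8.40 through a median of 40.9 to 61.5 IPM, so that 2 of the 6 animals lay within or below the Syn1Cre range given above and the groups overlapped. Its log2 fold change was -0.93 ± 0.25 (SE, adjusted p = 0.005376). Pecam1 ran from 18.1 through 23.1 to 47.8 IPM in Syn1Cre and from 0 through 12.5 to 19.8 in Syn1CreNeg. These groups overlapped too, and the log2 fold change was 0.88 ± 0.33 (SE, adjusted p = 0.04096). Aif1 (-0.20) and Thbd (-0.14) did not pass.

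Neither call was stable. That of P2ry12 was lost with distinct positions (adjusted p = 0.07287) and without Syn1CreNeg replicate 4 (0.05179). That of Pecam1 was lost with DESeq2, no low-count filter, the replicate block and the label layout as a block, and without any of Syn1CreNeg replicates 1, 2, 3, 5 and 6, with an adjusted p of up to 0.1414, and the locus missed the low-count filter in the 6 other leave-one-out fits that did not test it. Syn1CreNeg animals had 97519 to 556145 insertions, so that Pecam1 rested on 25 insertions there. The locus of Med12l, which counts the P2ry12 insertions too, was lower in Syn1Cre as well (-0.64, adjusted p = 0.002228 in edgeR). No Syn1Cre animal shared a sequencing pool with a Syn1CreNeg animal, so the effect of pool cannot be told apart from that of Cre. In this comparison all 16 astrocyte loci tested had a log2 fold change below 0 and 15 of them were called lower in Syn1Cre (median -1.24), with sums of 3595 to 4773 IPM in Syn1CreNeg animals against the 1193 to 3550 above, and their part in the P2ry12 difference was not tested.

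Of the other markers, Ptprc, the pan-leukocyte phosphatase gene, was higher in Syn1Cre than in Syn1CreNeg (log2 fold change 1.13, adjusted p = 0.00382). Sall1, a transcription factor of microglial identity that is also used in other tissues, was lower (-1.87, adjusted p = 1.48e-05). The remaining 3 of 5 microglia loci tested, all 4 endothelial and both mural loci tested did not pass.

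GFAPCre against GFAPCreNeg gave no call among the 4 members tested, where 8.15% of 9203 loci passed. Pecam1 was the 1 member with an unadjusted p under 0.05, and DESeq2 also called 0. P2ry12 ran from 33.6 through a median of 45.1 to 59.2 IPM in GFAPCreNeg, which overlaps the GFAPCre range, and its log2 fold change was -0.31 ± 0.17 (SE). Pecam1 was at 0.54 ± 0.26, Thbd at 0.39 ± 0.21 and Aif1 at -0.28 ± 0.16. Whether the P2ry12 and Pecam1 differences between Cre-positive and Cre-negative animals differ between the lines was not tested. Sall1 was again lower in the Cre-positive animals (-0.60, adjusted p = 0.02867), the 1 called locus of the 13 microglia, endothelial and mural loci tested. Of the astrocyte list 17 of 18 loci tested lay below 0 (median -0.56) and 8 were called lower, and their part in the Sall1 difference was not tested.

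With SP1 at P28, Aif1 was higher than in Syn1Cre, and Thbd and Flt1 were lower, 3 of the 5 members tested, in a comparison in which 51.5% of 12053 loci passed. Aif1 was at 116.4, 110.1, 115.4 and 86.6 IPM in the 4 animals, all above the Syn1Cre range of 35.9 to 53.1. Its log2 fold change was 0.76 ± 0.18 (SE, adjusted p = 9.74e-04). Thbd was at 4.31, 18.4, 0 and 20.8 IPM, all below the Syn1Cre range of 28.9 to 39.9. The log2 fold change of Thbd was -1.73 ± 0.35 (SE, adjusted p = 2.29e-04), a call that held with total scaling, DESeq2, no low-count filter, distinct positions and the replicate block and in each of the 10 leave-one-out fits. By the gene body alone Thbd missed the low-count filter and had no test. Flt1 overlapped, with 6.08 to 27.5 IPM in SP1 P28 and 15.8 to 25.8 in Syn1Cre. Its call (-0.82 ± 0.32, adjusted p = 0.03329) was lost in 6 other alternatives and without any of Syn1Cre replicates 3 and 4 and SP1 P28 replicates 1, 3 and 4, with an adjusted p of up to 0.1095.

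At P10 the same members were called, where 40.7% of 12787 loci passed. Aif1 was at 126.7, 178.2 and 230.8 IPM in the 3 animals, all above Syn1Cre (log2 fold change 1.52 ± 0.25, SE, adjusted p = 1.91e-05). Thbd had 0 insertions in all 3 animals, and with 3 counts over the group as the limit its level was at least 3.03-fold lower than the Syn1Cre mean of 33.3 (adjusted p = 1.03e-04). Flt1 was at 11.5, 11.1 and 0 IPM, from 2 insertions in all, below the lowest Syn1Cre animal. Its call (-2.10 ± 0.73, adjusted p = 0.02384) was lost with total scaling, DESeq2 and the gene body alone, and without SP1 P10 replicate 3 (adjusted p = 0.1506). Both SP1 comparisons share the Syn1Cre animals, so that they are not independent of each other. The SP1 and Syn1Cre pools were again separate, so that SP1 cannot be told apart from the pool. The age of the Syn1Cre animals is not given, so that SP1 cannot be told apart from age either, at P10 or at P28.

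The SP1 changes depend on the scaling for all loci but not for the direction of Aif1, Thbd or Flt1. Of the loci called, 50.9% were higher in SP1 P28 with TMM factors and 80.4% with scaling by total insertions, which moved the median of all loci from -0.06 to 0.42. At P10 the shares were 49.3% and 76.1% and the medians -0.26 and 0.27. The Aif1 log2 fold change lay between 0.43 and 1.24 over the alternatives at P28 and between 0.99 and 2.05 at P10. With distinct positions the Aif1 calls were lost, at an adjusted p of 0.2362 and 0.05434. P2ry12 (-0.35 at P28 and -1.11 at P10) and Pecam1 (-0.34 and -0.39) did not pass at either age. Of the astrocyte list 16 of 19 loci tested lay above 0 at P28 (median 0.49) and 4 were called higher, while at P10 10 of 20 lay below 0 (median -0.06) and 2 were called lower, and their part in the member differences was not tested.

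The higher Aif1 level of the SP1 animals lay on the Prrc2a side of the locus, a segment chosen after the positions were seen and so given without a test. Within 1 kb of the 5′ end of the Prrc2a body the level was 7.49 ± 2.03 IPM in Syn1Cre (SD, n = 6), 80.3 ± 24.5 in SP1 P28 (n = 4) and 146.0 ± 38.3 in SP1 P10 (n = 3). In the remainder of the locus towards and past Aif1 it was 36.6 ± 5.55 in Syn1Cre, 23.4 ± 15.6 in SP1 P28 and 28.8 ± 21.2 in SP1 P10. Within the Aif1 gene itself there were 4 insertions in SP1 P28, 1 in SP1 P10 and 23 in Syn1Cre. The locus of Prrc2a, a broadly expressed gene, was called higher in edgeR (0.84 at P28, adjusted p = 6.36e-04, and 1.53 at P10, adjusted p = 2.31e-05). It contains the segment near its own 5′ end, so these calls largely count the same insertions and are no separate result. The segment held 73 insertions in SP1 P28 and 40 in SP1 P10, and the Prrc2a locus 103 and 45. The locus of Lst1, a leukocyte gene on the other side, was also higher in edgeR (1.99 at P28, adjusted p = 3.27e-06, and 2.76 at P10, adjusted p = 5.12e-06). It shares part of the Aif1 locus.

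**Figure D4:**
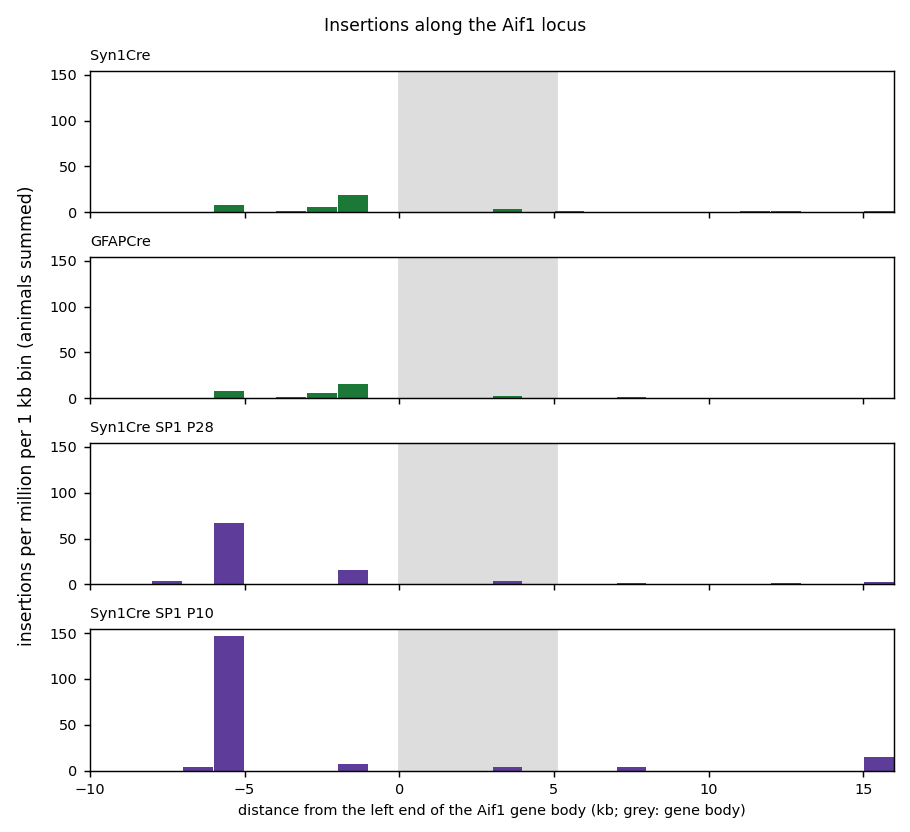
IPM in 1 kb bins (y axis, animals of a group summed) by distance from the left end of the Aif1 gene body in kb (x axis; grey, gene body), for Syn1Cre, GFAPCre and both SP1 groups. The SP1 groups have their tallest bin at -6 to -5 kb, at the 5′ end of Prrc2a, and Syn1Cre and GFAPCre at -2 to -1 kb; few insertions fall in the gene body.

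Single positions carried much of this. The TTAA printed in capitals in the Prrc2a promoter (position 35165019, 5967 bp from the Aif1 body) held 33 of the 108 Aif1 insertions in SP1 P28 (30.6%) and 24 of 49 in SP1 P10 (49.0%), against 7 of 239 in Syn1Cre (2.93%). Every SP1 animal had 6 to 10 insertions there and every Syn1Cre animal 0 to 3. All 79 insertions at the position were on the plus strand, so the limit of 10 a strand and animal given below was reached in 1 SP1 P28 animal, with 6 to 9 in the other SP1 animals, and it bounds the SP1 counts and shares too. In reads the position took 221 to 422 reads per 1000000 reads (RPM) in SP1 P28 animals, 304 to 775 in SP1 P10 and 0 to 2.43 in Syn1Cre. A neighbouring position (35165690) had 44.7 to 84.7 and 20.4 to 99.4 RPM in the SP1 groups against 1.64 to 6.03 in Syn1Cre. The ranges did not overlap at either position.

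The leading position of the locus in the other groups (35169020, 1966 bp from the Aif1 body) had a smaller share of the locus in the SP1 groups. It held 338 of all 991 insertions, was hit in 37 of 46 animals, and gave 90 of 239 insertions in Syn1Cre (37.7%) and 73 of 200 in GFAPCre (36.5%). In SP1 P28 it gave 14 of 108 (13%) and in SP1 P10 2 of 49 (4.08%). These shares are lowered by the insertions near Prrc2a, 73 of the 108 in SP1 P28 and 40 of the 49 in SP1 P10. Against all insertions of the group the position had 90 in 5573110 in Syn1Cre and 73 in 5201701 in GFAPCre. In SP1 P28 it had 14 in 1083099 and in SP1 P10 2 in 271946, and a difference in level was not tested. A cortex was processed in 10 parts, so a position and strand can be counted up to 10 times in an animal; the highest count seen was 10, and both strands together reached 18 of 20. Counts at this position were therefore also close to their limit in the deepest tables.

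**Figure D5:**
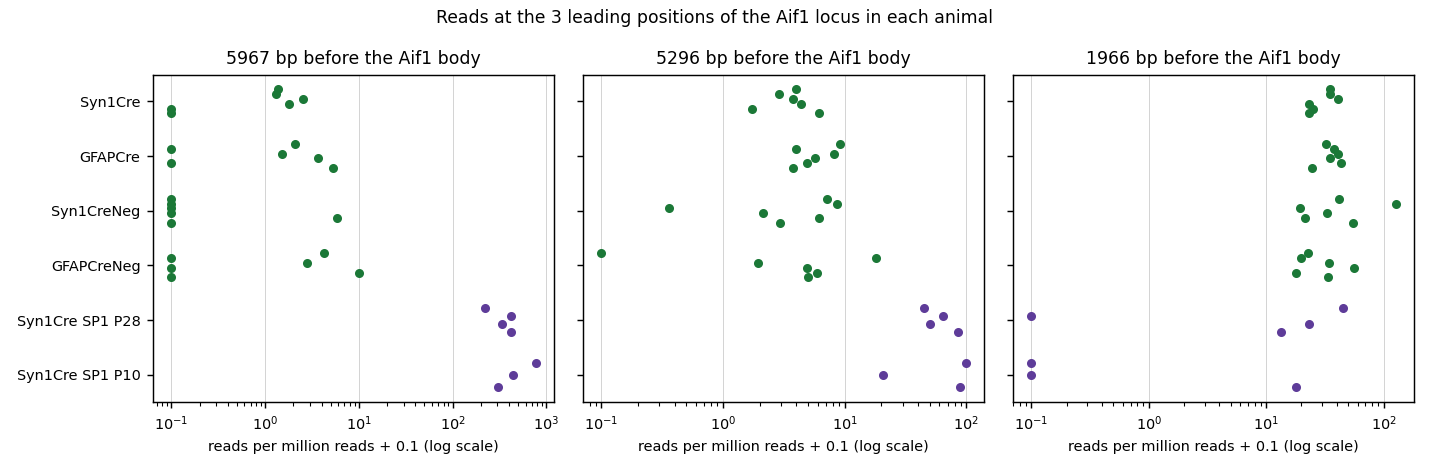
RPM plus 0.1 (x axis, log scale) at the 3 leading positions of the Aif1 locus, by group; each point is an animal, and a point at 0.1 is an animal with no read. At the position 5967 bp from the Aif1 body the SP1 animals lie at 221 to 775 and the Syn1Cre animals at 0 to 2.43.

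The loss at Thbd in the SP1 groups lay in the stretch between Sstr4 and Thbd, which had 31.8 ± 5.53 IPM in Syn1Cre (SD, n = 6), 10.4 ± 9.72 in SP1 P28 (n = 4) and 0 in the 3 SP1 P10 animals. The locus of Sstr4 was also called lower in edgeR (-1.68 at P28, adjusted p = 3.07e-04, and -2.30 at P10, adjusted p = 0.001609). It contains the same stretch, which held 174 insertions in Syn1Cre against 211 in the Sstr4 locus, so these calls are no separate result. The 2 SP1 groups differed by no member call: Aif1 was the 1 member tested, with an unadjusted p under 0.05 but an adjusted p of 0.08477 (P28 over P10, -0.67 ± 0.26), and DESeq2 also called 0. There 11.2% of 3460 loci passed, 66.7% of them higher at P28 with TMM factors and 44.6% with total scaling.

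Other microglia and endothelial loci were called in both directions with SP1. At P28, of 6 other microglia loci tested 1 was called higher and 2 lower, and of 8 endothelial loci 2 were called higher and 2 lower. At P10, of 6 microglia loci 1 was called higher and 1 lower, and of 11 endothelial loci 2 were called higher and 1 lower, and none of the 3 mural loci tested passed at either age. Cd68, a lysosomal gene of macrophages, was higher at P28 (2.18, adjusted p = 2.61e-07) and P10 (2.48, adjusted p = 4.12e-05). So were Slc2a1, the glucose transporter of the blood-brain barrier (1.31, adjusted p = 2.21e-06, and 1.84, adjusted p = 5.92e-06), and Egfl7, a secreted endothelial factor (1.71 and 2.25). Lower loci were Erg, an endothelial transcription factor (-1.35 at P28), Esam, an endothelial adhesion gene (-0.72 and -1.93), Ptprc (-1.29 at P28) and the lysosomal protease gene Ctss (-1.24 and -1.48). Medians were -0.17 for the microglia and -0.04 for the endothelial list at P28, against -0.06 for all loci, and -0.91 and -0.40 at P10, against -0.26. Sall1 was higher at P28 than at P10 (1.73, adjusted p = 0.004491).

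C57bl6J animals, with Cre-independent virus, were compared with both Cre lines and share those animals with the comparisons above. The C57bl6J animals were sequenced in pools of their own, so the effect of pool cannot be told apart from that of the virus. Against Syn1Cre, 0 of 7 members tested passed in edgeR and in DESeq2, where 0.81% of 14445 loci did; Aif1 and Flt1 had an unadjusted p under 0.05. Against GFAPCre, P2ry12 was lower and Flt1 higher, 2 of 7 members tested, where 12.5% of 13256 loci passed. P2ry12 was at 22.6 and 20.1 IPM in the 2 C57bl6J animals, below all GFAPCre animals (-0.70 ± 0.18, SE, adjusted p = 0.01125). Flt1 was at 32.3 and 29.7, above the GFAPCre range of 8.80 to 27.2 (0.88 ± 0.23, adjusted p = 0.009343).

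In this comparison all 20 astrocyte loci had a log2 fold change below 0 and 12 of them were called lower in C57bl6J (median -0.79), with sums of 981.3 and 1051 IPM, and their part in the P2ry12 difference was not tested. Both calls were lost with DESeq2 and without either C57bl6J animal, with an adjusted p of up to 0.1833 for P2ry12 and 0.09225 for Flt1, that of P2ry12 also with distinct positions and that of Flt1 also with the replicate block. The share of called loci higher in C57bl6J was 97.4% against Syn1Cre and 56.1% against GFAPCre, and 68.5% and 33.6% with total scaling, which moved the medians of all loci to -0.16 and -0.11. Of the other markers 12 microglia, 13 endothelial and 6 mural loci were tested against Syn1Cre and none passed. Against GFAPCre, Ptprc (0.92) and Abcc9, a pericyte potassium channel subunit (0.92), were higher and Sall1 (-1.43) lower, among 8 microglia, 11 endothelial and 5 mural loci tested.

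Thbd was the member that set Rbp4Cre_TRAP apart, with 105.2, 99.3, 74.9 and 163.9 IPM in the 4 animals, from 3 to 6 insertions each. All lay above the highest of the other mouse animals, Syn1CreNeg replicate 2 at 71.8. Against Syn1Cre the log2 fold change was 1.42 ± 0.38 (SE, adjusted p = 0.04046), the 1 call among 5 members tested, where 2.11% of 10693 loci passed. The call was lost without Syn1Cre replicate 6 and without each Rbp4Cre_TRAP animal, with an adjusted p of up to 0.1577, and with no low-count filter or the replicate block. Of the 18 insertions at Thbd in Rbp4Cre_TRAP, 17 lay between Sstr4 and Thbd and 1 within the gene. The locus of Sstr4, which shares that stretch and so counts the same insertions, was at 1.28 (adjusted p = 0.05657 in edgeR). Cre line, whole forebrain against cortex, TRAP and pool all differ between these groups, and their effects cannot be told apart. Flt1 ran from 39.7 to 99.8 IPM, above all Syn1Cre animals, but did not pass (1.13 ± 0.51, unadjusted p = 0.03277 and adjusted p = 0.2684 in edgeR). Csf1r and Cldn5 had 1 insertion each and Cx3cr1 had 0 in this group of 171833 insertions, and none of the 16 other microglia, endothelial and mural loci tested passed. Of the called loci 9.29% were higher in Rbp4Cre_TRAP, 34.7% with DESeq2 and 42.6% with total scaling. The astrocyte list summed to between 556.2 and 983.3 IPM in these animals, below every Syn1Cre animal, and its part in the Thbd difference was not tested.

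BrokenHeart, read from DNA, could not be tested for any member against C57bl6J: all 10 missed the low-count filter, and 39.9% of the 1879 loci tested passed. Its 3 animals had 12 insertions at P2ry12 and 14 at Pecam1, at 120.1, 30.6 and 47.1 IPM for P2ry12 and 137.3, 30.6 and 70.6 for Pecam1. These values lie above those of both C57bl6J animals (20.1 to 22.6 and 27.2 to 27.4), with 1 animal of the 3 well above the others for both genes. Frontflip_GFAPCre differed from GFAPCre at 0 of 5 members tested in edgeR and DESeq2, with none at an unadjusted p under 0.05, where 1.75% of 10526 loci passed, 85.9% of them higher and 75.5% with total scaling. Sall1 was higher there (0.90, adjusted p = 0.02338 in edgeR), the 1 call among 6 microglia, 7 endothelial and 4 mural loci tested. No Frontflip_GFAPCre animal shared a sequencing pool with a GFAPCre animal, so the effect of pool cannot be told apart from that of the construct. Of the astrocyte list 16 of 18 loci tested lay above 0 (median 0.70) and 6 were called higher, and their part in the Sall1 difference was not tested. In Frontflip_GFAPCreNeg, 2 of the 10 members had an insertion, P2ry12 and Aif1 with 1 each, and 3 counts over its 17607 insertions equal 170.0 IPM.

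In N2a, a line with no microglia or endothelial cells, Pecam1 was the most recorded member. It had 160 insertions, 198.4 IPM (95% Poisson interval 168.8 to 231.6, for counting error only), 118 of them within the gene. In the mouse animals its level ran from 0 to 137.3, and the mean was 27.3 in both C57bl6J and Syn1Cre. Thbd, by contrast, had 1 insertion (1.24 IPM, interval 0.0314 to 6.91), and Aif1 had 32 (39.7 IPM, interval 27.1 to 56.0). The table combines 3 experiments, and no test was possible.

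Across the 11 mouse groups, Aif1 was highest in SP1 P10 (178.6 IPM), then in SP1 P28 (107.1) and Rbp4Cre_TRAP (65.4), and the animals of these neighbours in the order did not overlap. From there down to C57bl6J (29.9), each group overlapped the next. Thbd was highest in Rbp4Cre_TRAP (110.8), apart from the next group, Syn1CreNeg (37.9); all later neighbours overlapped. Flt1 was likewise highest in Rbp4Cre_TRAP (58.3), above C57bl6J (31.0), with overlap further down. For P2ry12 and Pecam1 every neighbouring pair overlapped, from BrokenHeart (65.9 and 79.5) downward.

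By the likeness of log2(IPM + 1) over the 42 animals with at least 40000 insertions, the loci closest to Aif1 were Uimc1 (Pearson r = 0.945) and Git1 (0.91) among 3929 loci compared. Those closest to Thbd were Mapk10 and Dab1 (0.864 each) and those closest to P2ry12 were Ptpn13 (0.891) and Echdc1 (0.876). The animals share groups and depths, so that these values are a description.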

How the data were processed

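Each deposited table lists 1 insertion per line with its raw read count; that the authors deposited raw counts was read from the whole-number values. The submitters' processing notes name Novoalign, Bowtie2 and mm10 without versions or roles, and filters are not given in the sources used here. BrokenHeart starts were moved by -1, after which between 53.5% and 54.9% lay on a C57bl6J position (at most 0.504% at other shifts). Lines were counted per locus (RefSeq GRCm38.p6 protein-coding genes with 10 kb flanks), so that loci of neighbours share insertions. The counts of each pair of groups were tested across all loci with edgeR 4.0.16 (quasi-likelihood, TMM, filterByExpr, R 4.3.3), with Benjamini-Hochberg adjusted p under 0.05 as the threshold. Alternatives were total scaling, DESeq2 1.42.0, no filter, distinct positions, the gene body alone, left-out animals and blocks. On simulated data with 200 loci changed 3-fold, the test recovered between 36.5% (Rbp4Cre_TRAP) and 99.5% (GFAPCre against GFAPCreNeg). False calls were 9.88% of the calls for Rbp4Cre_TRAP against Syn1Cre, 7.91% for Syn1Cre against GFAPCre, 7.04% for C57bl6J against GFAPCre, 7% for C57bl6J against Syn1Cre and 5.24% for GFAPCre against GFAPCreNeg, above the nominal 5%, and 2.78% to 4.43% in the others. All members were named by level; of the other lists, the loci named in a comparison were the 2 called in each direction with the lowest adjusted p. The members, lists and tests were chosen with earlier results of these data known.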

Additional observations from a re-analysis of the deposited data

Results flagged for a closer look

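In groups of 4 to 10 animals, a gap between the highest or lowest animal and its neighbour was compared with the range of the group. In 10 of the 60 sets of values an animal was set apart. Chance sets apart about 1 in 20 for continuous values, a rate that does not hold for counts this sparse. A single insertion with all other animals at 0 is always set apart. Several of the 10 rest on 1 or 2 insertions. Syn1CreNeg replicate 2, with 97519 insertions the shallowest of its group, was highest for Csf1r (10.3 IPM, 1 insertion), Flt1 (20.5, 2 insertions), Cd93 (20.5, 2 insertions) and Thbd (71.8, 7 insertions, others 18.6 to 36.1). In Rbp4Cre_TRAP, a single insertion set apart replicate 2 for Csf1r (19.9), replicate 3 for Trem2 (25.0) and replicate 1 for Cldn5 (17.5), with the other animals at 0.

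In the deeper groups, GFAPCre replicate 4 was highest for Aif1 at 50.4 IPM (42 insertions, others 31.6 to 38.5), and GFAPCre replicate 6 was highest for Thbd at 49.9 (34 insertions, others 30.0 to 36.0). Syn1Cre replicate 5 was lowest for Trem2 at 2.26 (1 insertion, others 10.7 to 14.6). None of the 10 values entered a comparison in which the same member was called.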

How the results depend on the processing

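No direction of a called member reversed. Of the counts of members called, 62 values of alternatives stayed within 1.5 times and 15 moved; of those leaving out an animal, 89 stayed and 13 moved. For Syn1Cre against Syn1CreNeg (2 called) the count was 1 with DESeq2, 0 with distinct positions, 0 with the gene body alone, 1 with the replicate block and 1 with the label layout as a block, and 0 to 3 without single animals. With the gene body alone neither P2ry12 nor Pecam1 had a test in that comparison. For SP1 P28 against Syn1Cre (3) it was 1 with distinct positions and 0 with the gene body, where 3 members without Aif1 and Thbd could be tested. For SP1 P10 (3) it was 0 with the gene body, where the Flt1 call was lost and Aif1 and Thbd had no test. For C57bl6J against GFAPCre (2) it was 0 with DESeq2, 1 with distinct positions, 1 with the replicate block, 1 in the same animals without that block (an alternative chosen after seeing the data) and 0 to 2 without single animals. For Rbp4Cre_TRAP (1) it was 0 with no filter, the gene body or the replicate block, and 0 to 1 without single animals. With the gene body Thbd had no test there. With the gene body alone fewer insertions are counted; otherwise the cause was not tested. Replicate numbers did not pair the animals: correlations of same-numbered deviations ran from -0.221 to 0.171, over 0.1 in 5 of 41 pairs. Other counts of called members kept within 1.5 times under the replicate block.

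Loci called in all moved by over 1.5 times for C57bl6J against GFAPCre (1657, DESeq2 686), C57bl6J against Syn1Cre (117, total scaling 54, DESeq2 65, replicate block 1111), SP1 P28 against P10 (387, DESeq2 167), Frontflip_GFAPCre (184, replicate block 309) and Rbp4Cre_TRAP (226, total scaling 129, replicate block 124). Of the levels of members by group, 42 of 120 moved beyond the spread between animals with distinct positions and 59 of 120 with the gene body alone. Levels per TTAA were not run. Csf1r, Cx3cr1 and Cldn5 were too sparse for any test here.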
